A study of Mus musculus with 3 samples.

Results

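The genes described here are 9 that thymocytes use to respond to, or are known to report, signals through the T cell receptor (TCR) during selection: Cd69, Itm2a, Egr2, Egr3, Nr4a1, Cd5, Id3, Pdcd1 and Cd28. They were chosen by name, are 9 of the 32285 genes in the matrix, and were read in the 5183 thymocytes among 8392 kept cells. All cells were sequenced in 1 droplet lane, with gene expression, TCR and hashtag libraries of the same droplets. The lane held wild-type (WT), untreated mouse cultures of day 13 from 2 pools. FTOC stands for fetal thymic organ cultures, which were intact lobes of E13.5 embryos. ORFTOC stands for reaggregates of thymic epithelial cells (TECs) that had been grown as organoids from embryonic thymi, mixed with E13.5 thymus cells depleted of EpCAM-positive cells and with mouse embryonic fibroblasts. In each pool 2 cultures were mixed before the hashtag antibody was added, so each pool was 1 sample, no test between pools was possible, and every interval below is a 95% interval that covers counting error only. The thymocytes of both pools came from progenitors already in the embryonic thymus, and no blood supplied new ones.

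Thymocytes assemble the TCR β chain (TRB) first and the α chain (TRA) later. A DP thymocyte, which carries both CD4 and CD8, is positively selected when its receptor binds self-peptide on MHC of cortical TECs, and strong binding can lead to deletion or to a diverted fate. Signals through the receptor induce Nr4a1, Egr2 and Egr3, which encode transcription factors, and Cd69, which encodes a surface protein that holds cells in the thymus. Itm2a encodes a membrane protein induced during positive selection. Cd5 and Pdcd1 encode surface proteins that dampen receptor signalling, Cd28 encodes a costimulatory receptor and Id3 encodes an inhibitor of E proteins that acts downstream of receptor signals. Innate lymphocytes also use several of these genes upon activation.

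Each thymocyte was placed by the productive chains in the filtered contig list. No chain was listed in 1591 cells (915 ORFTOC, 676 FTOC), TRB only in 1921 (714 and 1207), and 1 TRB with 1 or 2 TRA in 1546 (689 and 857). Another 125 cells held other numbers of chains and are not used in the comparisons. The 6 T-lineage genes that defined a thymocyte were detected in both pools, from Cd247 at 168 unique molecular identifiers (UMIs) per 1000000 UMIs (CPM) in ORFTOC to Cd3d at 1067 CPM in FTOC. The 7 epithelial genes summed to 66.8 CPM in ORFTOC thymocytes and 71.3 CPM in FTOC thymocytes, against 11411 and 7580 CPM in the epithelial cells of the same lane. Median depth per cell was 5671 and 6046 UMIs without a chain, 3664 and 1943 UMIs with TRB only, and 5974 and 2169 UMIs with TRB and TRA, for ORFTOC and FTOC in that order. CPM values were therefore compared, and a gene was called different when its ratio passed 2-fold in the same direction in both pools with at least 20 UMIs over the groups in each. Ratios below are on the log2 scale.

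The members lie on 8 chromosomes of the mouse genome (GRCm38): Cd28 (chr1:60746388-60773359) and Pdcd1 (chr1:94038305-94052553), Id3 (chr4:136143822-136145392), Cd69 (chr6:129267324-129275375), Egr2 (chr10:67534469-67542188), Egr3 (chr14:70077317-70082613), Nr4a1 (chr15:101253902-101274795), Cd5 (chr19:10718107-10739026) and Itm2a (chrX:107397195-107403360). RefSeq promoters on GRCm38.p6 were listed for 6 of the 9. Nr4a1 and Itm2a are shown. Both were higher with TRB and TRA than with TRB only below, as was Egr2, whose windows are not printed. Among the 6, only these runs held the TGCGTCA letters named below. Over the 24 groups compared at the end, the levels of Nr4a1 and Itm2a had a Pearson's r of 0.06. Each run is the 250 bases before the RefSeq start, 5′ to 3′ along the gene, for Nr4a1 from chr15:101266596-101266845 on the plus strand and for Itm2a from chrX:107403361-107403610 on the minus strand. Capitals mark matches, on either strand, to TGCGTCA (CRE-like) and GCGNGGGCG (EGR).
Nr4a1: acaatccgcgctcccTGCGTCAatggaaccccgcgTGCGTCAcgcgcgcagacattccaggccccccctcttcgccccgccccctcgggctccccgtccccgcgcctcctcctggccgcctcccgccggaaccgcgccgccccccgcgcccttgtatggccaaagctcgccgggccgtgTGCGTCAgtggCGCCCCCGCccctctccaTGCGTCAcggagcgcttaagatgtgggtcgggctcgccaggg
Itm2a: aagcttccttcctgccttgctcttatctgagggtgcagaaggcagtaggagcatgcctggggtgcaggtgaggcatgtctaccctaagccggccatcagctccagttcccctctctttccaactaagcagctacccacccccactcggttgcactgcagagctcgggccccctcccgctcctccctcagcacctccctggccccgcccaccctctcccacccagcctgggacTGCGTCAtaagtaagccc
TGCGTCA was found 4 times in the Nr4a1 run, starting 235, 215, 71 and 42 bases before the start, and once in the Itm2a run, starting 18 bases before it. Its letters were chosen after these runs had been seen, and 1.75% of 32851 listed promoters held it. EGR letters stood once in Nr4a1, starting 60 bases before the start, and in 4.70% of promoters. The CRE letters TGACGTCA (1.55% of promoters) and the AP-1 letters TGANTCA (6.75%) were in none of the 6 members' windows, and a CArG box (1.47%) was found upstream of 4 of the 5 listed Egr2 starts, whose windows partly overlap. A match is a run of letters and was not tested as a site.

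From TRB only to TRB and TRA, Cd69, Itm2a, Nr4a1 and Egr2 were higher in both pools, while Cd5, Id3 and Cd28 were not past 2-fold in both pools, Pdcd1 was at close levels in both states and Egr3, on 6 to 21 UMIs, had an ORFTOC interval that held 0. Itm2a stood at 51.8 CPM in ORFTOC (interval 45.7 to 58.4) and 47.9 CPM in FTOC (41.8 to 54.6) with TRB only. It stood at 200 CPM (188 to 213) and 160 CPM (148 to 173) with TRB and TRA, ratios of 1.95 (1.75 to 2.15) and 1.74 (1.52 to 1.97), the largest among the 9 by mean. Neither interval of the later state met that of the earlier one.

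Cd69 was at 25.3 CPM in ORFTOC (21.1 to 30.1) and 27.1 CPM in FTOC (22.5 to 32.2) with TRB only and at 65.9 CPM (59.1 to 73.3) and 59.1 CPM (51.7 to 67.3) with TRB and TRA, ratios of 1.38 and 1.13. Nr4a1 was at 38.0 and 41.2 CPM with TRB only and at 94.7 and 103 CPM with TRB and TRA, a ratio of 1.32 in each pool. Egr2 was counted far less often: 11 ORFTOC and 15 FTOC UMIs with TRB only, and 26 and 33 UMIs with TRB and TRA. Its ratios were 1.22 (0.15 to 2.39) and 1.40 (0.48 to 2.39), so the lower bounds lay well under 2-fold. Thus 4 of 9 members were past 2-fold higher, against 1.82% of 10132 genes tested, and 0 of 9 were lower, against 1.57%. The median mean ratio of the members was 0.98, that of all genes tested −0.13. Centred on that median, 230 genes were higher and 97 lower, against 184 and 159 without centring.

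Cd5 went from 117 and 124 CPM with TRB only to 188 and 259 CPM with TRB and TRA, ratios of 0.68 (0.53 to 0.83) in ORFTOC and 1.06 (0.91 to 1.21) in FTOC. Id3 went from 209 and 303 CPM to 279 and 362 CPM, ratios of 0.42 and 0.25. Cd28 was at 118 and 161 CPM before and 135 and 170 CPM after, ratios of 0.19 and 0.08. For Cd28 the FTOC interval held 0. Pdcd1 was at 8.83 and 11.2 CPM before and 10.1 and 13.4 CPM after, from 45 to 52 UMIs in each pool and state, and both intervals held 0. Egr3 was counted with 15 and 6 UMIs before and 21 and 14 after, ratios of 0.46 (−0.56 to 1.52) and 1.49 (0.02 to 3.15).

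Among the TRB-positive cells, part carried more UMIs of γδ and innate genes (Trdc, Tcrg constant genes, Id2, Il2rb, Nkg7, Klrd1 and others, 13 in all) than of αβ genes (Rag1, Rag2, Dntt, Ptcra, Cd8a, Cd8b1 and Cd4). With TRB only, 618 of 714 ORFTOC and 1077 of 1207 FTOC cells were on the αβ side. With TRB and TRA, 436 of 689 and 691 of 857 were. On the αβ side alone, an alternative added after the data had been seen, Cd69 went from 10.9 and 12.6 CPM to 69.1 and 59.4 CPM. Its mean ratio was then 2.45, against the 1.38 and 1.13 above. Nr4a1 went from 28.7 and 22.6 CPM to 91.4 and 113 CPM, and both pools passed 2-fold. Itm2a had a mean ratio of 1.89 there. In the other direction, with dividing cells left out of both states the count fell to 1 of 9 (Itm2a), with mean ratios of 0.74 for Cd69 and 1.06 for Nr4a1. With cells thinned to 1000 UMIs it was also 1 of 9 (Itm2a), while the mean ratios of Cd69 and Nr4a1 were 1.48 and 1.48 and fewer members held the 20 UMIs. Over all genes, 69 of 9306 were higher without dividing cells and 49 of 6951 with thinned cells, against 184 of 10132.

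The response list, 30 further genes known to respond to receptor signals or to change upon selection, was tested for 28 genes, of which 6 were past 2-fold higher and 0 lower in both pools. Cxcr4, a chemokine receptor of cortical thymocytes, was the 1 tested gene with a mean ratio under −1, at −1.36 in ORFTOC and −0.80 in FTOC, and was chosen for mention after its values were seen. Ccr7, a receptor for chemokines of the medulla, went from 33.1 to 276 CPM in ORFTOC and from 61.9 to 251 CPM in FTOC. Nab2, a corepressor of EGR proteins, went from 7.06 to 31.7 CPM and from 6.87 to 28.9 CPM. Nr4a3, a relative of Nr4a1, went from 1.96 to 12.8 CPM and from 3.44 to 9.55 CPM. Bach2 and Irf4, which encode transcription factors, had mean ratios of 1.99 and 1.92, and Nfkbid, which encodes an NF-κB regulator, 1.22.

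**Figure D1:**
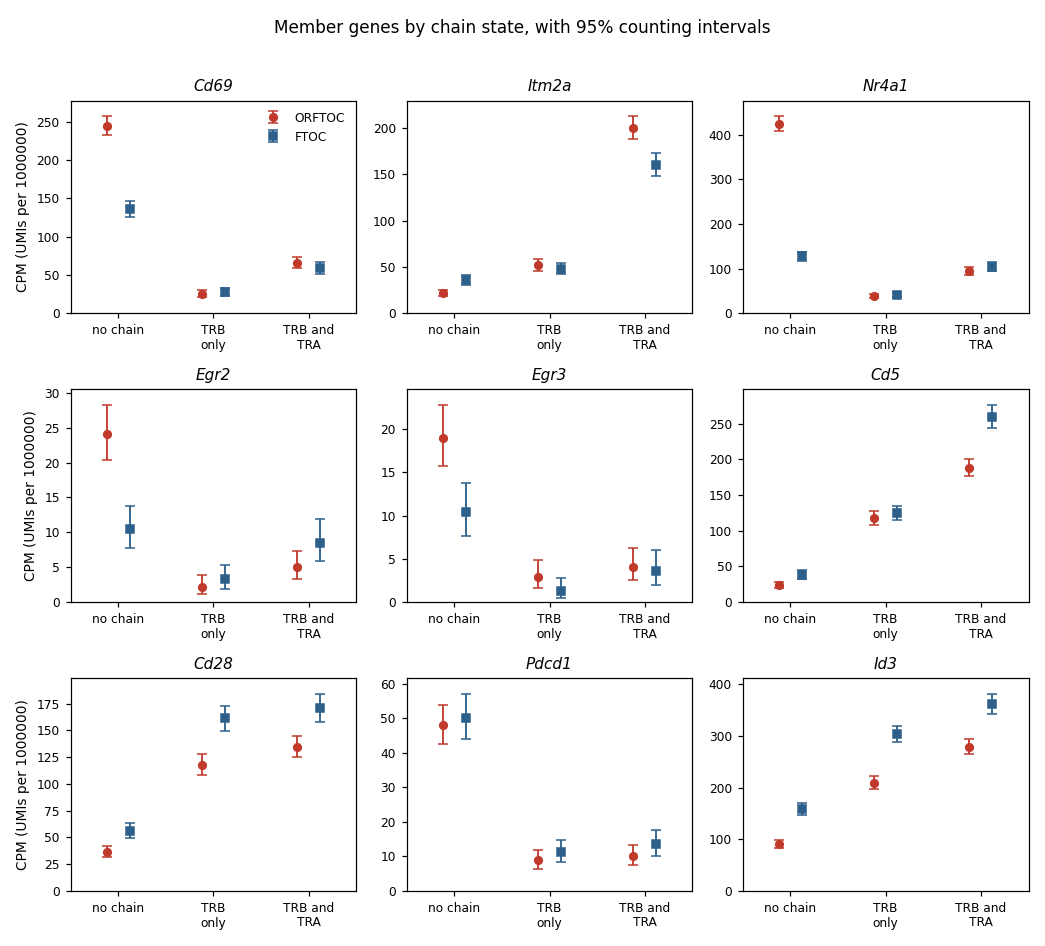
Level of each member (CPM) by chain state, ORFTOC in red circles and FTOC in blue squares, with exact Poisson 95% intervals as bars. Cd69, Itm2a and Nr4a1 are higher with TRB and TRA than with TRB only in both pools, and Cd69, Nr4a1, Egr2, Egr3 and Pdcd1 are highest without a chain.

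Among the 3 chain states, cells with no chain that passed the thymocyte gate held the highest levels of Cd69, Nr4a1, Egr2, Egr3 and Pdcd1. Most of these cells were not early αβ cells. The γδ and innate genes exceeded the αβ genes in 780 of 915 ORFTOC cells, or 85.2% (82.8 to 87.5), and in 464 of 676 FTOC cells, or 68.6% (65.0 to 72.1). Cd69 stood at 245 CPM in ORFTOC and 135 CPM in FTOC without a chain, and Nr4a1 at 425 and 127 CPM. Against no chain, TRB-only cells were thus past 2-fold lower for 5 of 9 members, Cd69, Egr2, Egr3, Nr4a1 and Pdcd1, against 7.86% of 10501 genes. Their ratios ran from −3.48 (Egr2 and Nr4a1 in ORFTOC) to −1.63 (Nr4a1 in FTOC). Cd5 (ratios of 2.32 and 1.70) and Cd28 (1.69 and 1.53) were past 2-fold higher, 2 of 9 against 6.25%. Of 29 genes of the response list described above, 11 were lower with TRB only, among them Nr4a3 and Nr4a2 (mean ratios of −3.85 and −3.69), and 3 were higher (Slamf6, Cd6 and Cd27).

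None of these 7 calls held when the cells without a chain were limited to the αβ side, 123 in ORFTOC and 205 in FTOC. Those of Egr2 and Egr3 could not be tested then. Of 7 members tested, 0 were higher (0.386% of 9338 genes) and 0 lower (0.353%). The unfiltered contig list held a TRB contig for 230 of these 328 cells, so the groups compared are not cleanly apart in TRB. There Cd69 was at 10.7 CPM in ORFTOC (6 UMIs, 3.92 to 23.2) and 27.8 CPM in FTOC (17 UMIs, 16.2 to 44.4). Cd5 was at 121 and 140 CPM and Cd28 at 135 and 167 CPM, and the intervals of their ratios held 0 in both pools. Nr4a1 was at 19.6 and 60.4 CPM. The ratios of TRB only over this group were 0.96 (0.09 to 1.99) in ORFTOC and −0.55 in FTOC for Nr4a1, and −0.05 and −0.18 for Cd5. Egr2 and Egr3, with 0 to 4 UMIs in this group, were too few to be tested. TRB-only cells of the γδ and innate side were still among the cells compared there. With both states limited to the αβ side, again 0 members were past 2-fold in both pools. Of 8863 genes, 16 were higher and 62 lower. The mean ratios over pools were −0.55 for Cd69, −0.43 for Nr4a1, 0.14 for Cd5 and 0.10 for Cd28. The TRB-only cells then held Cd69 at 10.9 and 12.6 CPM and Nr4a1 at 28.7 and 22.6 CPM. Nr4a1 was thus higher than without a chain in ORFTOC and lower in FTOC. Cd69 was level in ORFTOC and lower in FTOC. Cd5, at 135 and 153 CPM, was slightly higher in both pools, and Cd28, at 130 and 200 CPM, only in FTOC. The direction of the mean over pools thus depended, for these members, on whether the TRB-only cells were limited too. For Nr4a1 the direction within each pool did not.

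Against cells with TRB and TRA, the γδ and innate side was past 2-fold higher for Cd69, Egr3 and Pdcd1, 3 of 9 members against 6.57% of 10239 genes. It was lower for Itm2a, Cd5, Id3 and Cd28, 4 of 9 against 3.86%. Pdcd1 stood at 53.0 CPM in ORFTOC (47.1 to 59.4) and 57.4 CPM in FTOC (50.2 to 65.3), against 10.1 and 13.4 CPM with TRB and TRA. Cd5 stood at 12.4 and 22.4 CPM, 3.92 and 3.53 log2 units below, and Itm2a at 17.3 and 34.2 CPM. Egr2 and Nr4a1 were past 2-fold in ORFTOC (2.40 and 2.30) and not in FTOC (0.38 and 0.41). From the response list, Spry2, Cd83, Nr4a2 and Egr1 were among 8 of 30 genes past 2-fold higher, and Cd6 and Slamf6 among 5 lower. Cd6, a relative of Cd5, was at 5.41 and 8.56 CPM against 99.0 and 147 CPM.

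The γδ and innate side was split by which of 4 short gene lists was highest: Trdc and Tcrg constant genes, Klrd1 genes (Klrd1, Nkg7, Ly6c2, Il2rb, Xcl1), Il22 genes (Il22, Chad, Il23r) or Il13 genes (Il13, Il1rl1, Rora, Hs3st1, Gata3). These lists were written with leading genes of earlier clusters known. The 6 T-lineage genes summed to 600 and 768 CPM in the Il22 group and 1378 and 1356 CPM in the Il13 group. The Trdc and Tcrg group held 2559 and 3072 CPM of them and the Klrd1 group 3219 and 3401 CPM. Cells with TRB and TRA held 3914 and 4814 CPM. Cd69 peaked in the Il13 group, at 730 CPM in ORFTOC (684 to 778) and 1123 CPM in FTOC (966 to 1298). Nr4a1 peaked there too, at 1400 CPM (1336 to 1466) and 1031 CPM (881 to 1199), as did Egr2 (80.1 and 73.6 CPM). Egr3 stood there at 41.6 and 36.8 CPM, against 16.9 CPM in ORFTOC and 38.6 CPM in FTOC in the Il22 group, so it was highest in the Il13 group in ORFTOC, and in FTOC the 9 UMIs of the Il22 group and the 6 of the Il13 group did not separate them. The Il13 group also carried the highest summed level of 10 genes that respond to tissue dissociation (Fos, Jun, Ier2, Dusp1 and others), 22664 CPM in ORFTOC and 18332 CPM in FTOC, against 1849 and 1374 CPM in the Klrd1 group and 634 and 907 CPM in TRB-only cells. The part of dissociation in these levels was not tested.

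Pdcd1 peaked in the Il22 group, at 129 CPM in ORFTOC (107 to 155) and 180 CPM in FTOC (130 to 244), where its interval met that of the Il13 group (129 CPM, 79.8 to 197). In the Trdc and Tcrg group Pdcd1 differed between the pools, with 19 UMIs (28.1 CPM) in ORFTOC and 69 UMIs (115 CPM) in FTOC, a ratio of −2.03 (−2.84 to −1.28). Id3 peaked in the Klrd1 group of this side, at 136 and 172 CPM, and was nearly absent from the Il13 and Il22 groups, with 1 to 3 UMIs in each pool. Cd5 was at most 41.6 CPM (Trdc and Tcrg group, FTOC) and Cd28 at most 46.8 CPM (Klrd1 group, FTOC). Both stayed below their levels on the αβ side without a chain.

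**Figure D2:**
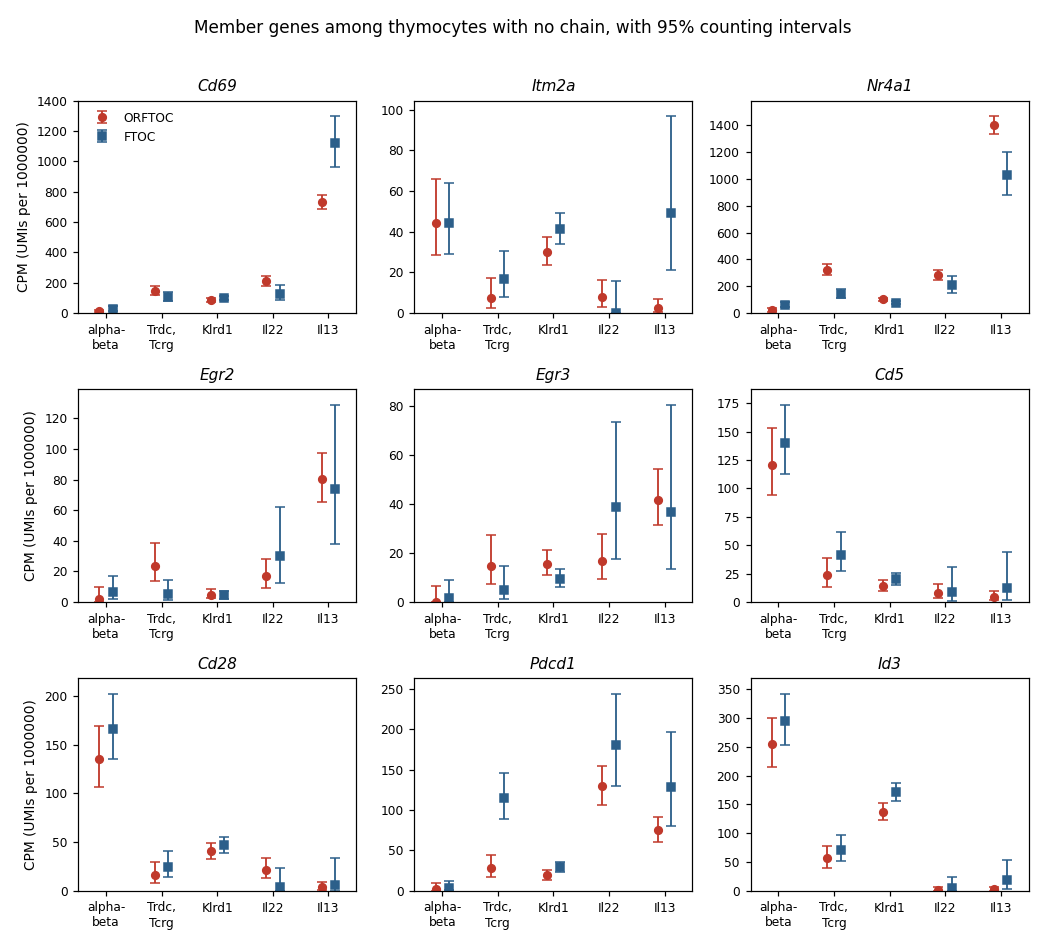
Level of each member (CPM) in thymocytes without a chain, for the αβ side and the Trdc and Tcrg, Klrd1, Il22 and Il13 groups of the γδ and innate side, ORFTOC in red circles and FTOC in blue squares, with exact Poisson 95% intervals. Cd69 and Nr4a1 are highest in the Il13 group and Cd5, Cd28 and Id3 on the αβ side.

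Cells with TRB and TRA were then ordered by genes that no member belongs to: dividing cells (8 mitotic genes), Rag-expressing cells (Rag1 and Rag2, as in DP cells before selection), Rag-low Klf2-low cells, and Klf2-high cells (Klf2 and S1pr1, genes of egress). Rag-expressing cells were 25.7% of ORFTOC (22.5 to 29.1) and 47.0% of FTOC cells (43.6 to 50.4). Rag-low Klf2-low cells were 21.3% and 20.3%, and Klf2-high cells 33.7% and 21.4%. Within a factor of 2 of a gate's threshold lay 99 of the 1546 cells for Rag and 373 for Klf2. Median depth was 1678 and 1653 UMIs in Rag-expressing cells and 6044 and 2311 UMIs in Rag-low Klf2-low cells. The Rag gate is a rate, so deeper cells needed more Rag UMIs to pass it.

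Itm2a, Cd69 and Nr4a1 were higher once Rag was low. Itm2a went from 42.5 CPM in ORFTOC (14 UMIs) and 43.4 CPM in FTOC (31 UMIs) among Rag-expressing cells to 306 CPM (275 to 341) and 292 CPM (255 to 331) among Rag-low Klf2-low cells, ratios of 2.85 and 2.75. Cd69 went from 18.2 CPM (6 UMIs) and 36.4 CPM (26 UMIs) to 127 CPM (106 to 149) and 82.2 CPM (63.6 to 105), ratios of 2.80 (1.64 to 4.27) and 1.18 (0.50 to 1.89). Nr4a1 went from 33.4 CPM (11 UMIs) and 53.2 CPM (38 UMIs) to 169 CPM (146 to 195) and 187 CPM (158 to 219), ratios of 2.34 and 1.81. These were 3 of 6 members tested, against 7.05% of 6665 genes higher, and 0 of 6 were lower, against 14.3%. The median mean ratio of the members tested was 1.22 and that of all genes tested −0.41. With ratios centred on the median gene, 625 of all genes were higher and 547 lower, against 470 and 956 without centring, and the same 3 members were past 2-fold.

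Pdcd1 could not be tested, with 1 and 0 UMIs among Rag-expressing cells and 18 and 24 UMIs after (16.3 and 29.9 CPM). Egr2 showed no common direction: 0 ORFTOC and 11 FTOC UMIs among Rag-expressing cells, and 14 and 4 UMIs after. Egr3 went from 0 and 1 UMIs to 11 and 8 UMIs. A count of 0 over the 329430 UMIs of ORFTOC Rag-expressing cells has an upper bound of 11.2 CPM. In ratios it was set at 3 UMIs, or 9.11 CPM. Id3 was level across this step, at 419 and 425 CPM before and 394 and 440 CPM after. Cd28 was lower in ORFTOC, from 407 CPM (341 to 482) to 164 CPM (141 to 189), and its FTOC ratio was −0.18 (−0.48 to 0.11). Cd5 went from 294 to 272 CPM in ORFTOC, a ratio of −0.11 (−0.45 to 0.23), and from 214 to 429 CPM in FTOC, a ratio of 1.00 (0.72 to 1.29).

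The 13 γδ and innate genes moved with this step, from 52 and 91 CPM among Rag-expressing cells to 1159 and 993 CPM among Rag-low Klf2-low cells. When Rag-low Klf2-low cells were limited to the αβ side (76 of 147 in ORFTOC, 126 of 174 in FTOC), Cd69 was at 231 and 103 CPM and Nr4a1 at 266 and 247 CPM, above the levels of all Rag-low Klf2-low cells. Itm2a was then higher in ORFTOC, at 484 CPM, and lower in FTOC, at 262 CPM (214 to 318), than over all of them. Cd5 was then at 422 CPM in ORFTOC (359 to 494) and 688 CPM in FTOC (608 to 776), above the Rag-expressing level in each pool. Cd28 was at 253 and 352 CPM and Pdcd1 at 13.4 and 7.70 CPM, from 5 and 3 UMIs.

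Within the Rag-expressing cells, TRB and TRA were also compared with TRB only. Of 5 members tested, 0 were past 2-fold higher in both pools (0.0633% of 6319 genes) and 0 lower (0.269%), counts that are near those of all genes. Cd5 was at 142 CPM in ORFTOC with TRB only and 294 CPM with TRB and TRA, a ratio of 1.05 (0.62 to 1.47), and at 172 and 214 CPM in FTOC, a ratio of 0.31 (0.01 to 0.61). Nr4a1 had ratios of 0.45 (−0.81 to 1.65) and 1.12 (0.42 to 1.82). Itm2a was at 32.1 and 37.1 CPM before and 42.5 and 43.4 CPM after, and both intervals of its ratio held 0. In Rag-low Klf2-low cells the ratios of TRB and TRA over TRB only were larger for Itm2a (1.74 and 1.98) and Cd5 (1.27 and 2.07). These 2 groups also differed in makeup. The γδ and innate genes stood at 1523 and 2254 CPM with TRB only and at 1159 and 993 CPM with TRB and TRA. Their part in these ratios was not tested.

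From Rag-low Klf2-low to Klf2-high cells no tested member passed 2-fold in both pools, with 0 of 7 higher (0.452% of 7302 genes) and 0 of 7 lower (1.03%). Cd69 went to 57.8 and 60.0 CPM, ratios of −1.13 (−1.51 to −0.76) and −0.46 (−0.95 to 0.04). Nr4a1 went to 80.6 and 118 CPM, ratios of −1.07 and −0.66. Cd5 went to 169 and 225 CPM, ratios of −0.69 and −0.93, and Id3 to 185 and 307 CPM, ratios of −1.09 and −0.52. Itm2a was at 246 CPM in ORFTOC (−0.32) and at 140 CPM in FTOC (−1.06). Cd28 had ratios of −0.58 (−0.88 to −0.28) and −0.97 (−1.29 to −0.65), and Pdcd1 of −0.81 (−1.86 to 0.23) and −1.06 (−2.02 to −0.11). Among these ratios the intervals of Cd69 in FTOC and of Pdcd1 in ORFTOC held 0. The median mean ratio of the members was −0.80, that of all genes tested −0.15. Centred on that median, 53 genes were higher and 54 lower, against 33 and 75 without centring. This count depended on the weighting of cells: it was 6 of 7 lower with equal weight per cell and 5 with cells thinned to 1000 UMIs. Over all genes, 344 of 7381 were lower with equal weight and 91 of 2422 with thinned cells, against 75 of 7302.

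Of the response list, 11 of 25 genes tested were past 2-fold higher at the step out of Rag expression, against the 7.05% of all genes above, and 3 were lower, against 14.3%. Tnfrsf9, which encodes a costimulatory receptor of strongly signalled cells, went from 0 and 4.20 CPM to 93.1 and 69.8 CPM, and Myc, which encodes a growth regulator, from 12.1 and 30.8 CPM to 190 and 128 CPM. Ccr7, Bach2 and Gadd45b had mean ratios of 2.57, 2.12 and 2.11, and Cxcr4 −2.05. At the step to Klf2-high cells 1 of 26 genes was higher (Ccr7), against 0.452% of all genes, and 7 were lower, against 1.03%. Ccr7 was thus past 2-fold higher and Cxcr4 past 2-fold lower at both steps. Ccr4, Nr4a2, Cxcr4, Tnfrsf9, Tox and Nr4a3 were the 6 largest by mean ratio, from −1.97 to −1.40.

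**Figure D3:**
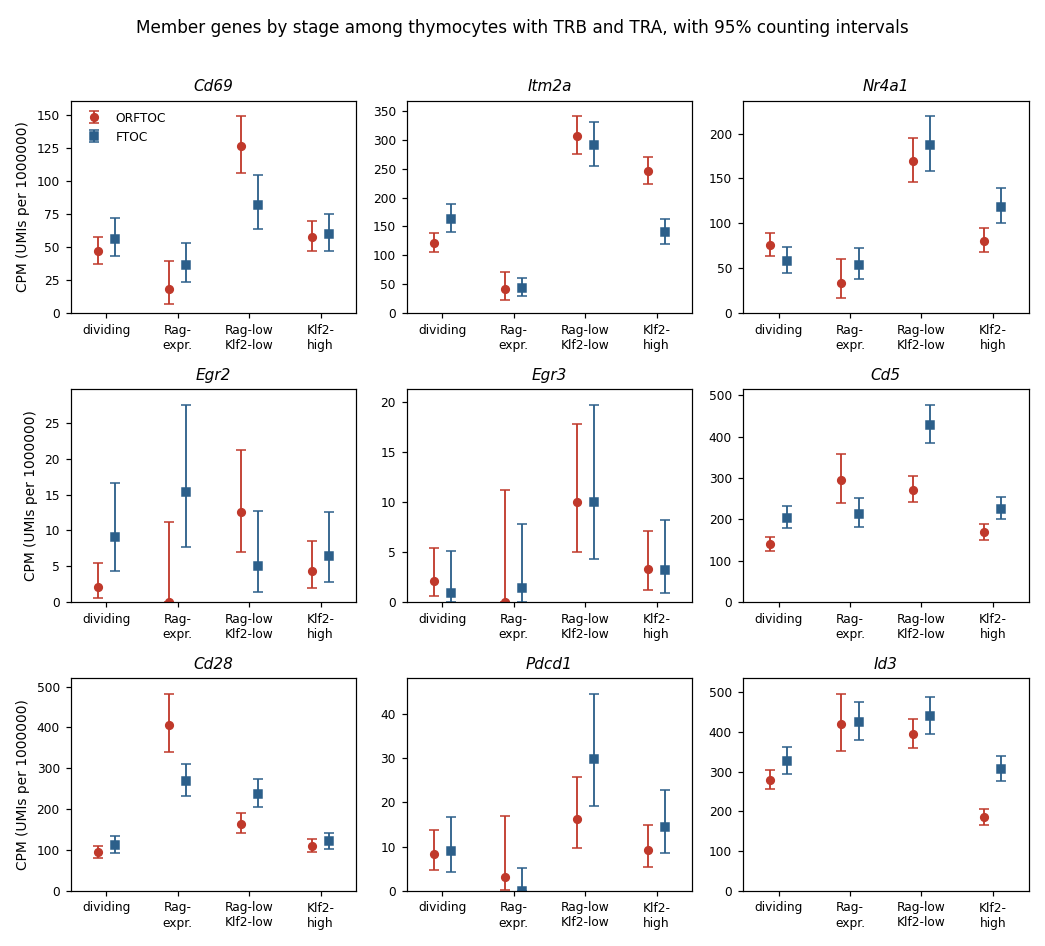
Level of each member (CPM) in thymocytes with TRB and TRA by stage gate, ORFTOC in red circles and FTOC in blue squares, with exact Poisson 95% intervals. Itm2a, Cd69 and Nr4a1 are lowest in Rag-expressing cells and highest in Rag-low Klf2-low cells in both pools.

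Rag-low cells with TRB and TRA were split by coreceptor transcripts into a Cd4 side (Cd4 and no Cd8a or Cd8b1 UMI, 67 ORFTOC and 44 FTOC cells) and a Cd8 side (the reverse, 203 and 188 cells). Itm2a differed most. It was at 737 CPM in ORFTOC (664 to 816) and 315 CPM in FTOC (252 to 390) on the Cd4 side and at 109 CPM (94.6 to 126) and 121 CPM (102 to 141) on the Cd8 side, ratios of 2.75 and 1.39. It was the 1 of 6 members tested past 2-fold higher, against 0.781% of 6534 genes, and 0 were lower, against 2.14%. With equal weight per cell or with thinned cells Itm2a no longer passed 2-fold in both pools, at mean ratios of 1.47 and 1.33.

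Id3 was lower on the Cd4 side, at 154 and 234 CPM against 292 and 335 CPM, ratios of −0.93 (−1.29 to −0.58) and −0.52 (−0.92 to −0.13). Cd5 was higher there in both pools (0.69 and 0.43, neither interval holding 0), as was Nr4a1 (0.53 and 0.64). Cd28 had ratios of 1.14 (0.76 to 1.52) in ORFTOC and 0.32 (−0.18 to 0.80) in FTOC. Cd69 did not differ beyond counting error, at 65.0 and 85.3 CPM against 70.1 and 72.5 CPM. Egr2 and Egr3 were counted with 0 or 1 UMI on the Cd4 side and with 9 to 17 UMIs on the Cd8 side, and Pdcd1 with 8 and 3 against 17 and 16 UMIs. At this depth their ratios had intervals that held 0. The γδ and innate genes stood at 225 and 82 CPM on the Cd4 side and at 1207 and 1307 CPM on the Cd8 side. The mesenchymal genes summed to 11.8 CPM in ORFTOC and 167 CPM in FTOC on the Cd4 side and to 6.07 and 11.8 CPM on the Cd8 side, and Itm2a is also counted in mesenchymal cells at levels given below. Without cells holding a stromal marker UMI, the mean ratio of Itm2a was 2.47, against 2.07 with them, and Itm2a was still past 2-fold in both pools. Of the response list, Bcl2l11, which encodes a cell death protein, was lower on the Cd4 side (31.5 and 40.8 CPM against 63.5 and 103 CPM), the 1 gene called of 22 tested.

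**Figure D4:**
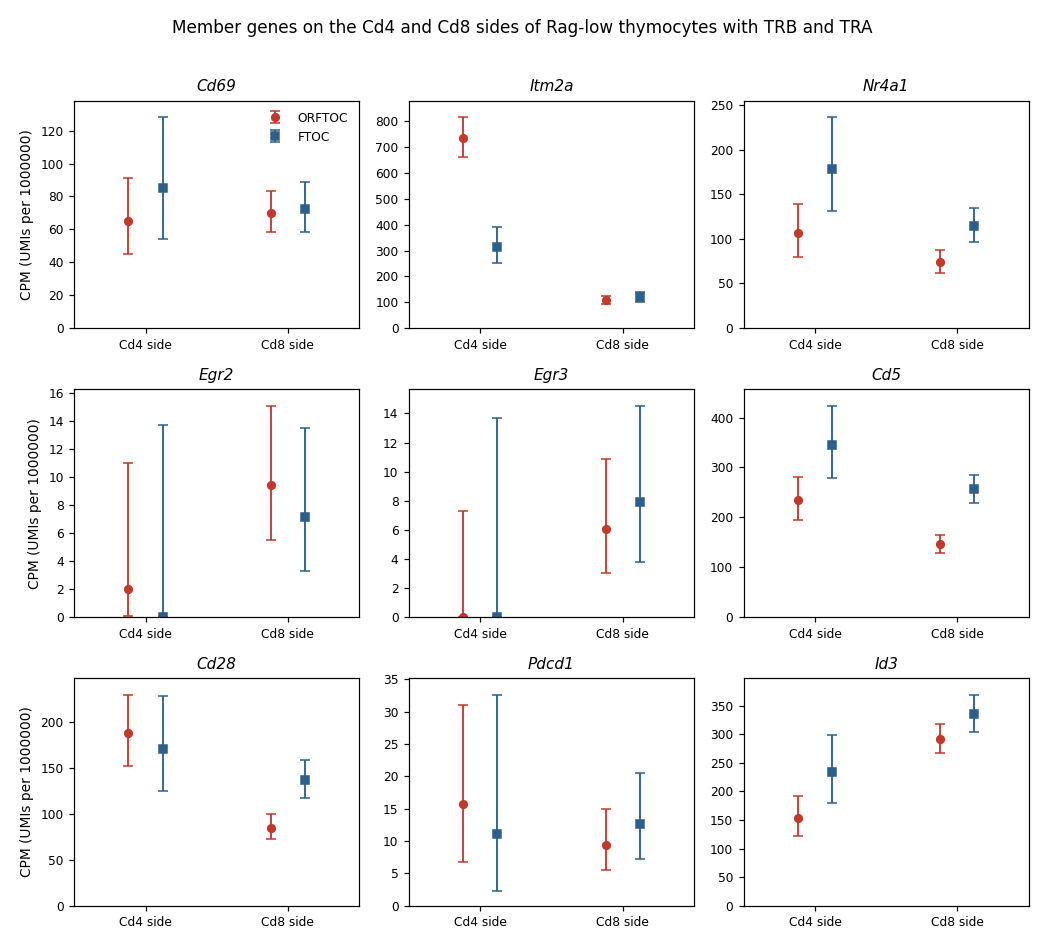
Level of each member (CPM) on the Cd4 side and the Cd8 side of Rag-low thymocytes with TRB and TRA, ORFTOC in red circles and FTOC in blue squares, with exact Poisson 95% intervals. Itm2a is higher on the Cd4 side in both pools, from 315 to 737 against 109 to 121 CPM.

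The study set ORFTOCs beside FTOCs as a control, so the pools were compared within each state. With TRB and TRA, 0 of 9 members were past 2-fold between the pools, against 5.53% of 10300 genes. Itm2a was higher in ORFTOC by 0.32 (0.18 to 0.47), and Cd5 (−0.46, −0.59 to −0.33), Id3 (−0.37, −0.48 to −0.27) and Cd28 (−0.34, −0.50 to −0.18) were lower. Cd69 (0.16), Nr4a1 (−0.12), Egr2 (−0.76), Egr3 (0.17) and Pdcd1 (−0.42) had intervals that held 0, for Egr2 from −1.56 to 0.02. The median over the members was −0.34 and over all genes tested −0.10. The makeup of this state differed between the pools, with more Klf2-high and fewer Rag-expressing cells in ORFTOC.

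Among Rag-low Klf2-low cells with TRB and TRA, 0 of 7 members tested were past 2-fold, against 7.07% of 7355 genes. Cd69 was higher in ORFTOC by 0.62 (0.19 to 1.07) and Cd5 lower by a ratio of −0.66 (−0.88 to −0.43). Nr4a1 was at 169 CPM in ORFTOC and 187 CPM in FTOC and Itm2a at 306 and 292 CPM, with intervals of the ratio that held 0 and stayed within −0.46 and 0.32. On the αβ side alone, Cd69 passed 2-fold (231 against 103 CPM). Among Klf2-high cells Itm2a was higher in ORFTOC by 0.81 (0.56 to 1.07), and on the Cd4 side by 1.23 (0.88 to 1.58). On the Cd8 side Itm2a did not differ beyond counting error (−0.14, −0.45 to 0.17), and Cd5 was lower in ORFTOC by a ratio of −0.81 (−1.05 to −0.58).

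With TRB only, 1 of 9 members was past 2-fold, Egr3, on 15 against 6 UMIs and with an interval from −0.26 to 2.84, against 6.21% of 10442 genes. Cd69 (−0.10, −0.46 to 0.27), Nr4a1 (−0.12, −0.41 to 0.18), Itm2a (0.11, −0.15 to 0.38) and Cd5 (−0.08, −0.25 to 0.08) lay near 0. Id3 (−0.54) and Cd28 (−0.45) were lower in ORFTOC.

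Without a chain, 2 of 9 members were past 2-fold, both higher in ORFTOC, against 7.22% of 10936 genes: Nr4a1 by 1.74 (1.61 to 1.87) and Egr2 by 1.21 (0.73 to 1.71). Cd69 was higher by 0.85 and Egr3 by 0.87. Itm2a (−0.72), Cd5 (−0.70), Id3 (−0.82) and Cd28 (−0.61) were lower, and Pdcd1 did not differ beyond counting error. The makeup of this state also differed between the pools, and its part in these differences was not tested. The Il13 group was 28.2% of the γδ and innate side in ORFTOC (25.1 to 31.5) and 5.39% in FTOC (3.52 to 7.85), whereas the Klrd1 group was 31.5% and 62.1%. Without the Il13 group, an alternative added after the data had been seen, 0 of 9 were past 2-fold, with ratios of 0.81 for Nr4a1 and 0.16 for Egr2. Within the Il13 group Nr4a1 was higher in ORFTOC by 0.44 and Cd69 lower by a ratio of −0.62. On the αβ side Nr4a1 was lower in ORFTOC, by a ratio of −1.63 (−2.75 to −0.62) on 11 against 37 UMIs. The summed dissociation genes stood at 7448 CPM in ORFTOC and 2428 CPM in FTOC in this state, and at 1007 and 992 CPM with TRB and TRA. Their part in the pool difference was not tested. Of the response list, Egr1 (501 against 129 CPM), Nr4a3 (73.1 against 19.3 CPM) and Gadd45b (190 against 57.0 CPM) were past 2-fold higher in ORFTOC without a chain and Dusp2 was lower (66.0 against 152 CPM). With TRB and TRA, 1 of 28 was past 2-fold, Nr4a2, at 18.2 CPM in ORFTOC and 7.74 CPM in FTOC.

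**Figure D5:**
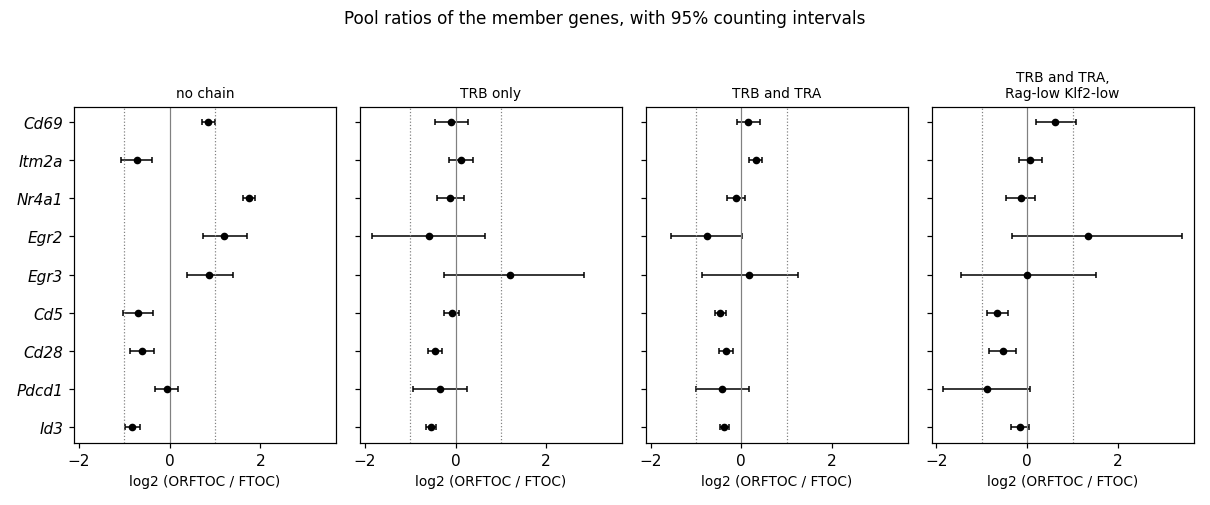
Log2 ratio of ORFTOC over FTOC for each member in 4 groups of thymocytes, with exact 95% counting intervals, a solid line at 0 and dotted lines at 2-fold. With TRB and TRA no ratio passes 2-fold, and without a chain those of Nr4a1 and Egr2 do.

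At the level of cells, each was thinned to 1000 UMIs so that depth did not set the share. With TRB and TRA, Cd69 had a UMI in 5.55% of the 685 cells from ORFTOC (3.96 to 7.54). The FTOC share was 4.26% of 846 cells. Epithelial cells, which should lack it, were at 0.392% and 0%. The FTOC value of 0 was out of 1020 cells, with an upper bound of 0.361%. At full depth the shares with TRB and TRA were 20.8% and 14.8%. Itm2a reached 13.0% (10.6 to 15.7) and 9.10% (7.25 to 11.2), against 4.76% and 3.13% with TRB only. For Itm2a the epithelial shares were 0.235% and 2.25%. Cd5 reached 19.4% and 20.9%, against 9.96% and 12.0% with TRB only and 0.157% and 0% of epithelial cells. Pdcd1, Egr2 and Egr3 were found in 0.146% to 1.18% of cells with TRB and TRA. For Egr3 the shares with TRB and TRA, 0.146% and 0.473%, rested on 1 and 4 cells and are not read as expression. Its epithelial shares were 1.81% and 1.18%. For Pdcd1 the epithelial shares were 0% in both pools, with upper bounds of 0.289% and 0.361%. Thinning left out 11 or fewer cells of a pool in this state and up to 26 with TRB only. Nr4a1, Egr2, Egr3, Id3 and Cd28 were counted in epithelial cells at levels given below, and their epithelial shares were not used as background. Epithelial cells were deeper, with medians of 13072 and 12155 UMIs before thinning.

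A Nr4a1 UMI was more frequent in thinned cells with a Cd69 UMI than in those without. Among ORFTOC cells with TRB and TRA, the share was 34.2% of the 38 with Cd69 (19.6 to 51.4) and 6.96% of the 647 without it (5.12 to 9.20). In FTOC it was 22.2% of 36 (10.1 to 39.2) and 4.81% of 810 (3.45 to 6.52). Cd5 went with Nr4a1 in FTOC, in 61.7% of 47 cells with Nr4a1 (46.4 to 75.5) and 18.5% of 799 without it (15.9 to 21.4). In ORFTOC these were 32.8% of 58 (21.0 to 46.3) and 18.2% of 627 (15.2 to 21.4). For Itm2a the shares were 15.8% with Cd69 and 12.8% without it in ORFTOC, and 8.33% and 9.14% in FTOC, with intervals that overlapped. Cells of a stage share their state, so these shares describe the cells and are no test.

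Across 24 groups (3 chain states, 4 stage gates and 2 pools), the genes most like each member by Pearson's r of log2(CPM + 10), among 8828 genes, fell into few patterns. Points of 1 lane share its depth and free RNA, and no p is given. Cd69 was most like Junb (0.95), Ier2 (0.95) and Cish (0.91), and Nr4a1 like Junb (0.89), Cd69 (0.89) and Cish (0.88). Junb and Ier2 are on the dissociation list. Egr3 was most like Nr4a3 (0.89), Lif and Cited4, and Egr2 like Itprid2 (0.82), Gclc and Il2. Cd5 was most like Cd6 (0.93), Trac (0.90) and Rgs10, Id3 like Cd6 (0.88), Cd5 and Trac, and Cd28 like Satb1 (0.97), Cd6 and Cnn3. Pdcd1 was most like Plcg2 (0.92), Cd38 and Cd82. Itm2a had a pattern of its own among the members, most like A430093F15Rik (0.89), Izumo1r (0.88) and Eno3 (0.78), with r of 0.04 to Cd69 and 0.63 to Cd5.

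Outside the thymocytes the members differed in their levels in stroma. Cd69, Cd5 and Pdcd1 were at 0 to 6.26 CPM in epithelial and mesenchymal cells of both pools. Id3 was at 231 and 181 CPM in 1274 and 1020 epithelial cells and at 786 and 692 CPM in 257 and 75 mesenchymal cells. The mesenchymal levels lay above those of the 3 chain states. Egr2 was at 128 and 91.5 CPM in epithelial cells, against 2.16 to 24.0 CPM over the chain states, and Nr4a1 at 105 and 107 CPM in epithelial and 395 and 396 CPM in mesenchymal cells. Itm2a was at 439 and 368 CPM in mesenchymal cells, and at 2.29 CPM in ORFTOC and 17.1 CPM in FTOC epithelial cells, a ratio of −2.90 (−3.43 to −2.41). Cd28 was counted in epithelial cells at 32.7 and 36.1 CPM and at 0.545 and 7.82 CPM in mesenchymal cells. Egr3 was at 18.4 and 9.24 CPM in epithelial and 31.8 and 45.4 CPM in mesenchymal cells. Immune cells without the T-lineage call held Cd69 at 81.9 and 89.1 CPM, Egr2 at 90.5 and 92.5 CPM and Pdcd1 at 36.0 and 65.4 CPM, for Pdcd1 above its 8.83 to 13.4 CPM in TRB-positive thymocytes.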

How the data were processed

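Gene expression, TCR and hashtag libraries came from 1 lane made with a 5′ droplet kit, which held the ORFTOC and the FTOC pool. The matrix was deposited by the authors as raw counts of UMIs for every barcode, with both hashtags, and contigs were deposited as lists with the UMI count behind each. The submitters' processing notes name Cell Ranger 6.1.2, Seurat 4.2.0 and mm10, while the matrix header names another Cell Ranger release. The members and all gene lists were chosen with earlier results of these data known. The list of Il22 genes was shortened after the data had been seen, since 1 of its genes is not reported here.

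Of 705161 barcodes, 10910 held at least 600 genes, and 10245 of those also held 0.4% to 10% mitochondrial UMIs. Hashtags were assigned with HTODemux (Seurat 5.3.0, quantile 0.99), which left 8983 cells with 1 hashtag, and 591 within-pool doublets were removed by their share of known doublets among 50 neighbours, leaving 4334 ORFTOC and 4058 FTOC cells. A cell went to the compartment whose 7 marker genes summed highest, with at least 3 UMIs, and a thymocyte was an immune cell with at least 2 UMIs of 6 T-lineage genes and more of these than of myeloid genes. Stage gates were, in order, dividing (at least 2 UMIs and 10 per 10000), Rag1 and Rag2 (3 per 10000) and Klf2 and S1pr1 (5 per 10000). No gate used a member.

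UMIs were summed per group and pool and divided by the group's total. Levels carry exact Poisson intervals, ratios exact conditional binomial intervals and shares Clopper-Pearson intervals. Under 3 UMIs a count was set to 3 in a ratio, and genes under 20 UMIs over both groups were not tested in that comparison. Each pool was 1 sample, so no p-value is given. All 9 members are named, and of the response list at most 6 genes past 2-fold per comparison. The scripts were tested on simulated data. Analyses used Python 3.11.15, scipy 1.17.1 and R 4.3.3. The 18 other settings tried covered hashtags, doublets, gates, contigs, depth, ambient RNA, clones and scaling, and 3 more were added after the data had been seen.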

Additional observations from a re-analysis of the deposited data

Results flagged for a closer look

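Itm2a differed between the pools in opposite directions in different chain states. Its log2 ratio of ORFTOC over FTOC was −0.72 (−1.06 to −0.38) without a chain and 0.32 (0.18 to 0.47) with TRB and TRA, and neither interval held 0. Each pool was 1 sample, and the difference between the states was not tested.

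The unfiltered contig list, which no comparison above uses, held TRB contigs for part of the cells without a listed chain. On the αβ side 230 of 328 such cells had an unfiltered TRB contig, and on the γδ and innate side 180 of 1244 had one. Of the 614 TRB contigs in cells without a listed chain, 341 were marked productive.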

How the results depend on the processing

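Counts of members past 2-fold moved by no more than 1.5 times under 211 of 253 alternatives, and of 358 ratios of called members 303 kept their direction and stayed past 2-fold, 48 fell under 2-fold or were not tested and 7 reversed. All 7 reversals came with only the cells without a chain limited to the αβ side: TRB only over no chain was then −0.11 for Cd5, −0.12 for Cd28, 0.60 for Cd69, 0.20 for Nr4a1 and 0.96 for Pdcd1 (means over pools), and ORFTOC over FTOC was −0.29 for Egr2 and −1.63 for Nr4a1. In that setting TRB only over no chain held 0 members higher and 0 lower, in place of 2 and 5. Limiting the TRB-only cells to the αβ side as well also gave 0 and 0. None of those 5 means over pools was then reversed (Cd5 0.14, Cd28 0.10, Cd69 −0.55, Nr4a1 −0.43, Pdcd1 −0.19). The pools did not all follow the means: in ORFTOC Nr4a1 was higher with TRB only and Cd28 slightly lower, against their main directions. The 5 lower members became 3 with cells thinned to 1000 UMIs or at least 100 UMIs to be tested. Genes called lower were then 344 of 7420 and 405 of 7676, against 825 of 10501 in the main setting. The 4 members higher with TRB and TRA became 1 without dividing cells or with thinned cells. Genes called higher were then 69 of 9306 and 49 of 6951, against 184 of 10132 in the main setting. The 0 members lower in Klf2-high cells became 6 with equal weight per cell, 5 with thinned cells, 3 on the αβ side alone, 2 with gate rates at 0.5 times, and 1 with gate rates at 2 times or at least 5 UMIs to be tested. Genes called lower were, in order, 344 of 7381, 91 of 2422, 117 of 5197, 115 of 7033, 162 of 7789 and 228 of 9793. The main setting called 75 of 7302. The 1 member on the Cd4 side (Itm2a) became 0 with equal weight per cell or thinned cells and 2 on the αβ side alone (Itm2a and Id3). Genes called either way were, in order, 206 of 6663, 43 of 1572 and 148 of 4652, against 191 of 6534 in the main setting. Between the pools, the 2 members without a chain became 7 with equal weight per cell, 6 with no T-lineage gate, 5 with thinned cells, 4 without dividing cells and 0 without the Il13 group. Genes called were then, in order, 1353 of 11199, 1538 of 12187, 665 of 7577, 877 of 10605 and 583 of 10704. The main setting called 790 of 10936. The 1 member with TRB only (Egr3) became 0 with at least 1000 genes, equal weight per cell, ambient RNA subtracted, cells without stromal markers, contigs of 3 UMIs, thinned cells, 1 cell per TRB clone or at least 100 UMIs, and 2 with no T-lineage gate. Genes called were, in order, 593 of 10272, 701 of 10668, 664 of 10232, 691 of 9937 and 641 of 10567. For the later settings they were 428 of 7962, 477 of 10208, 173 of 7687 and 723 of 10608. The main setting there called 648 of 10442. The 0 members with TRB and TRA became 1 with equal weight per cell (Egr2), with 877 of 10544 genes called against 570 of 10300. Among Rag-low Klf2-low cells the 0 became 1 with doublets kept, equal weight per cell, cells without stromal markers, contigs of 3 UMIs, any number of chains, thinned cells, at least 5 UMIs or the αβ side alone, and 2 with gate rates at 0.5 times. Genes called were, in order, 581 of 7757, 1093 of 7644, 438 of 6274, 502 of 7159 and 450 of 7567. For the later settings they were 254 of 2706, 1166 of 10018, 424 of 5090 and 611 of 6019. The main setting there called 520 of 7355. Causes of these moves were not tested. The median share of cells with a UMI, over members, chain states and pools, was 4.51% thinned and 15.7% at full depth. No paired analysis was possible because each pool was 1 sample, and no replicate could be left out. Egr2 and Egr3 were counted with 6 to 33 UMIs in each pool with TRB, and the lower bounds of their ratios between these states lay under 2-fold.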
